A study of Schizosaccharomyces pombe with 6 samples.

Results

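The genes described here build and remodel the cell wall of the fission yeast Schizosaccharomyces pombe. They are 8 of the 6878 annotated features in the count files, chosen by their systematic IDs: psu1 (SPAC1002.13c) and psu2 (SPBC2G2.17c) of the SUN family, the β-glucan synthase genes bgs1 (SPBC19G7.05c), bgs2 (SPAC24C9.07c), bgs3 (SPAC19B12.03) and bgs4 (SPCC1840.02c), the glucan-elongating gene gas1 (SPAC19B12.02c), and the α-glucan synthase gene ags1 (SPCC1281.01), also named mok1. All 8 IDs had a row in every file. What was measured is not their mRNA but small RNA: reads of RNA pulled down with Argonaute (Ago1), the protein that carries small interfering RNAs in fission yeast, and counted over each gene.

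All 6 libraries came from the wild-type strain 975 h+, grown in the minimal medium EMM with added adenine, histidine, leucine, lysine and uracil at 32 °C. The 24h group (3 libraries) had been washed into EMM without nitrogen and kept there for 24 h, which takes fission yeast out of division and into quiescence. The 0h group (3 libraries) was its growing control. Per the labels, Ago1 was captured from ground frozen cells with FLAG beads, and the bound RNA was size-selected to between 20 and 30 nucleotides. No tagged allele of Ago1 appeared in the labels, on which the name Ago1-bound rests. No library of an untagged strain or of input RNA is among the samples used here. The labels did not say whether replicates were separate cultures, so the p-values measure the spread between these libraries, which may be technical.

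The wall of fission yeast is made of layers of β-glucan and α-glucan under an outer coat of galactomannan. Glucan synthases in the plasma membrane spin the chains, extracellular enzymes of the Gas family lengthen and join them, and glucanases cut them again when the septum is split and daughter cells part. In the nucleus, small RNAs bound to Ago1 guide the RNA interference machinery to matching transcripts, best known from the centromere repeats. The comparison asked how much small RNA lay on these genes in nitrogen-starved cells and how much in growing cells.

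Assigned reads numbered 54393, 249986 and 758789 in the 24h libraries and 48040, 112578 and 145861 in the 0h libraries. SPNCRNA.232, a transcript of the centromere repeats, had 6287, 1299 and 7770 CPM (reads on a common library size, scaled by TMM factors) at 24h and 401200, 227100 and 142600 CPM at 0h. Small RNA on ste11, which starts sexual differentiation when nitrogen runs out, was at 881, 1015 and 754 CPM at 24h and 30.1, 31.7 and 68.2 CPM at 0h. The marker ste11 was chosen with earlier results of these data known and passed the count filter through 24h alone. Its values describe the libraries and are no check of the labels. TMM scaling sets the typical feature near no change. The median log2 fold change of the 1716 tested features was -0.02 with TMM, 0.69 with library totals and 3.55 per aligned read, so a rise or fall below is relative to the typical feature.

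Of the 8 genes, 7 had enough counts for the test. Small RNA on psu1, psu2 and bgs1 rose at 24h (adjusted p below 0.05 over all 1716 features, by Benjamini-Hochberg on edgeR's quasi-likelihood test), whereas bgs3, bgs4, ags1 and gas1 did not pass. The 3 rises stand beside a background of 13.1% of all tested features called higher. No gene of the 7 was called lower, beside a background of 12.8%. At an unadjusted p below 0.05 there was 1 lower gene, gas1, and DESeq2 called 0 lower and 3 higher. The gene psu2 passed the count filter through its 24h reads, so its place among the tested genes is not independent of its change. On the TMM scale every 24h library lay above every 0h library for 4 of the 8 genes (psu1, psu2, bgs1 and bgs4), where 24.3% of the tested features did so, and below for 0, where 19.7% did so. In bulk libraries such as these, fewer cells carrying a small RNA and less of it per cell cannot be told apart.

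**Figure D1:**
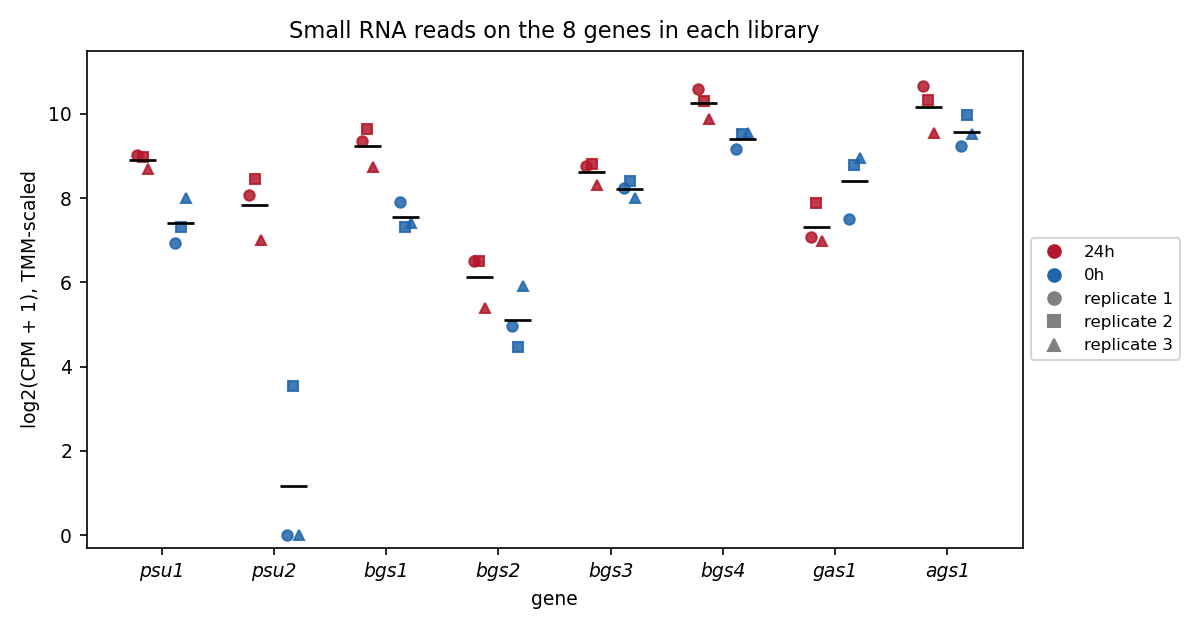
Small RNA on each of the 8 genes in each library, as log2(CPM + 1) with TMM scaling; red symbols are 24h libraries, blue symbols 0h libraries, symbol shape gives the replicate and black lines the group mean of the plotted values. The 24h libraries of psu2 lie far above its 0h libraries, of which 2 hold no read, while gas1 is the gene whose 24h mean lies below its 0h mean.

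The SUN family proteins Psu1 and Psu2 are wall proteins of a family annotated as β-glucosidases; psu1 is needed for wall building and cell separation in growing cells. For psu2 the reads numbered 18, 139 and 106 at 24h and 0, 1 and 0 at 0h. Nearly all reads on psu2 were therefore from starved cells, and all 3 24h libraries lay above every 0h library. A count of 0 allows up to 90.3 CPM in 0h replicate 1 and up to 25.6 CPM in 0h replicate 3, against 269, 350 and 128 CPM measured at 24h. The pooled ratio was 49.9-fold, with a 95% counting interval of 8.87 to 1977 that covers counting error only, and edgeR's adjusted p was 0.00218. The fitted change ranked 3 from the highest of 1716, but with 1 read at 0h in all this rank is no measure of size. Because psu2 passed the count filter through 24h alone, its p and rank are not independent of its change. Without 0h replicate 2, which held the only 0h read, it passed again (adjusted p = 0.00894) with a fitted log2 value of 9.13 that, with no 0h read left, measures no size.

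Small RNA on psu1 was at 523, 506 and 409.9 CPM in the 24h libraries and at 120.5, 158 and 256 CPM in the 0h libraries. The lowest 24h library was above the highest 0h library. The log2 fold change was 1.34 (SE 0.36, edgeR adjusted p = 0.0188, Benjamini-Hochberg), which ranked 227 among the 1716 features. The call was lost when 0h replicate 1 was left out (adjusted p = 0.0556) or 0h replicate 2 (0.101). Over all libraries of a group psu1 had 576 reads at 24h and 49 at 0h, and psu2 had 263 and 1.

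Bgs1 makes the linear β-glucan of the primary septum, the wall laid down across a dividing cell. Its gene had 657, 793 and 428 CPM of small RNA at 24h and 241, 158 and 171 CPM at 0h, with no overlap between the groups. The log2 fold change was 1.77 (SE 0.38, edgeR adjusted p = 0.00838, Benjamini-Hochberg), and ranked 134 among the tested features. Leaving out 0h replicate 2 gave 1.65 with an adjusted p of 0.0545, so only psu2 of the 8 genes was then called.

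Bgs4 makes most of the β-glucan of growing walls and septa, and its gene carried the most or the second most reads of the 8 in every library. It had 1538, 1269 and 944 CPM at 24h and 572, 739 and 750.0 CPM at 0h. The groups did not overlap, but the log2 fold change of 0.85 (SE 0.39) did not pass (edgeR adjusted p = 0.131, Benjamini-Hochberg). It passed with library totals (1.59, adjusted p = 0.0168), where the median feature was itself at 0.69 and 33.1% of features were called higher.

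Bgs3 is a glucan synthase essential for growing cells. Its gene was at 433, 446 and 317 CPM in 24h libraries and at 301, 338 and 256 CPM in 0h libraries, so that 24h replicate 3 lay inside the 0h range. The log2 fold change was 0.41 (SE 0.32, edgeR adjusted p = 0.372, Benjamini-Hochberg).

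Bgs2 is the synthase of the spore wall, which is built after mating and meiosis. Small RNA on its gene was sparse, with 6, 36 and 34 reads at 24h and 1, 2 and 7 at 0h, and it did not reach the count filter. On the CPM scale it had 89.6, 90.7 and 41.0 CPM at 24h and 30.1, 21.1 and 59.7 CPM at 0h, with 24h replicate 3 below 0h replicate 3. The pooled ratio was 1.44, with a counting interval of 0.742 to 3.13 that includes no change. With no filter, edgeR gave a log2 fold change of 1.07 (adjusted p = 0.270, Benjamini-Hochberg).

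The α-glucan synthase gene ags1, whose product makes the α-glucan layers that surround the cell and flank the septum, was at 1613, 1287 and 743 CPM at 24h and at 602, 1003 and 733 CPM at 0h. The value of 24h replicate 3 lay below that of 0h replicate 2, so the groups overlapped. The log2 fold change was 0.62 (SE 0.43, edgeR adjusted p = 0.312, Benjamini-Hochberg). As for bgs3 and bgs4, the library-total scale called it higher (1.37, adjusted p = 0.0433).

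Gas1 is a glucanosyltransferase that lengthens β-glucan chains outside the membrane. Small RNA on gas1 was at 134, 237 and 125 CPM at 24h and at 181, 443 and 494 CPM at 0h. Here 24h replicate 2 lay above 0h replicate 1, and the other 2 24h libraries lay below every 0h library. The log2 fold change of -1.21 (SE 0.41) fell just short of the threshold (edgeR adjusted p = 0.0523, Benjamini-Hochberg). It passed with RLE factors (edgeR adjusted p = 0.0486), with a minimum count of 30 (0.0288) and with the replicate number as a block (0.00798). It also passed with 24h replicate 2 left out (0.0273) or 0h replicate 1 left out (0.0262). It did not pass with library totals (0.497) or in DESeq2 (adjusted p = 0.235), and per aligned read its sign turned to 2.53.

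Scaling to aligned reads moved the whole table upward. There 93.9% of tested features were called higher and the median was 3.55, and all 7 tested genes were then called higher. As CPM of aligned reads gas1 had 5.50, 20.3 and 3.10 at 24h and 0.619, 1.87 and 2.39 at 0h, and all 8 genes had every 24h library above every 0h library on that scale, where 92.3% of features did. Set against the median feature of the same scale, gas1 was at -1.20 with TMM, -1.13 with library totals and -1.02 per aligned read. On the same 3 scales psu2 lay 5.75, 5.78 and 5.63 above the median, bgs1 1.78, 1.86 and 1.94, and psu1 1.36, 1.39 and 1.41. Distances from the median moved by less than 1 SE between scales for these 4 genes. A change of scale shifts all features of a library alike, and subtracting the median takes most of that shift away. The small movement therefore follows largely from the subtraction and is no test of the scaling.

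**Figure D2:**
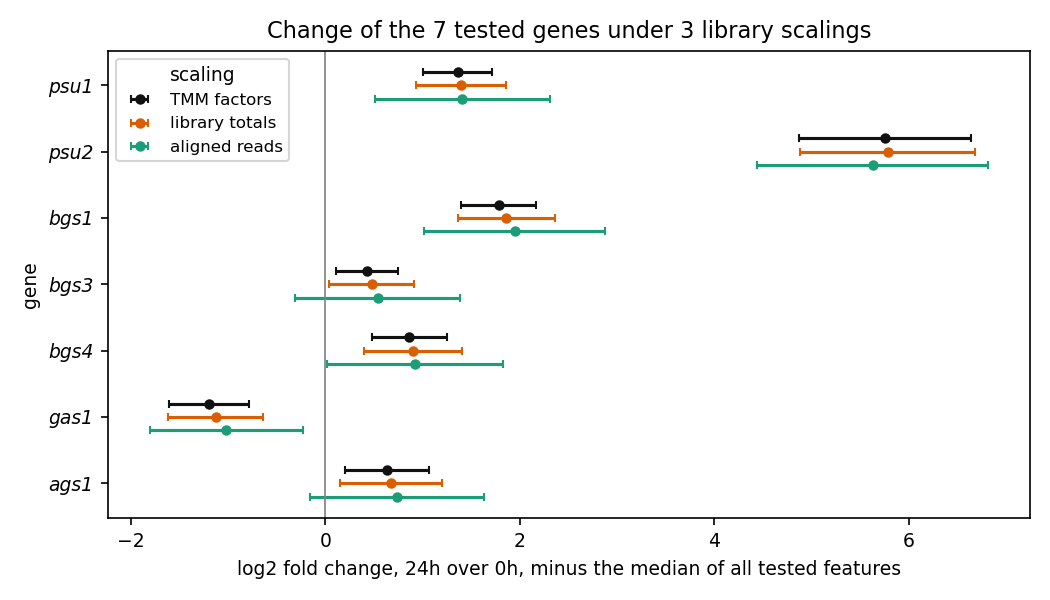
Log2 fold change (24h over 0h) of the 7 tested genes minus the median of all 1716 tested features, with bars of 1 SE of the fold change, for TMM factors, library totals and aligned reads. Under all 3 scalings psu2 stands farthest to the right and gas1 alone lies left of 0. Subtracting the median takes away most of the difference between scalings.

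Counts of the 8 genes set against each other need no library scaling. Together they held 352, 1977 and 2601 reads at 24h and 68, 272 and 319 at 0h, or 0.647, 0.791 and 0.343% of assigned reads at 24h and 0.142, 0.242 and 0.219% at 0h. Unlike the shares within the 8, these percentages do depend on the library total, a scale on which the median tested feature was itself at 0.69. Within the reads on the 8 genes gas1 made up 2.56, 4.75 and 4.00% at 24h and 8.82, 15.4 and 18.2% at 0h, with no overlap. The share of bgs4 was 29.3, 25.5 and 30.1% at 24h and 27.9, 25.7 and 27.6% at 0h, and these ranges overlapped. Shares of bgs1 were 12.5, 15.9 and 13.7% at 24h and 11.8, 5.51 and 6.27% at 0h. Shares of a fixed total are not independent, so higher shares of psu1, psu2 and bgs1 at 24h lower the share of gas1.

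The gas1 and bgs3 genes lie next to each other on chromosome I, with 1 counted feature, the noncoding RNA SPNCRNA.255, between them. There were 3.22, 1.88 and 2.53 reads on bgs3 for each read on gas1 at 24h, and 1.67, 0.762 and 0.517 at 0h. These values did not overlap, but 1.67 in 0h replicate 1 came from 10 reads on bgs3 and 6 on gas1. The nearest 24h value, 1.88 in replicate 2, came from 177 and 94 reads. With so few reads in 0h replicate 1, counting error can exceed the gap between these values. For psu1 there were 3.89, 2.14 and 3.27 reads for each gas1 read at 24h and 0.667, 0.357 and 0.517 at 0h. These ratios were chosen after the counts were seen and are given without a test.

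**Figure D3:**
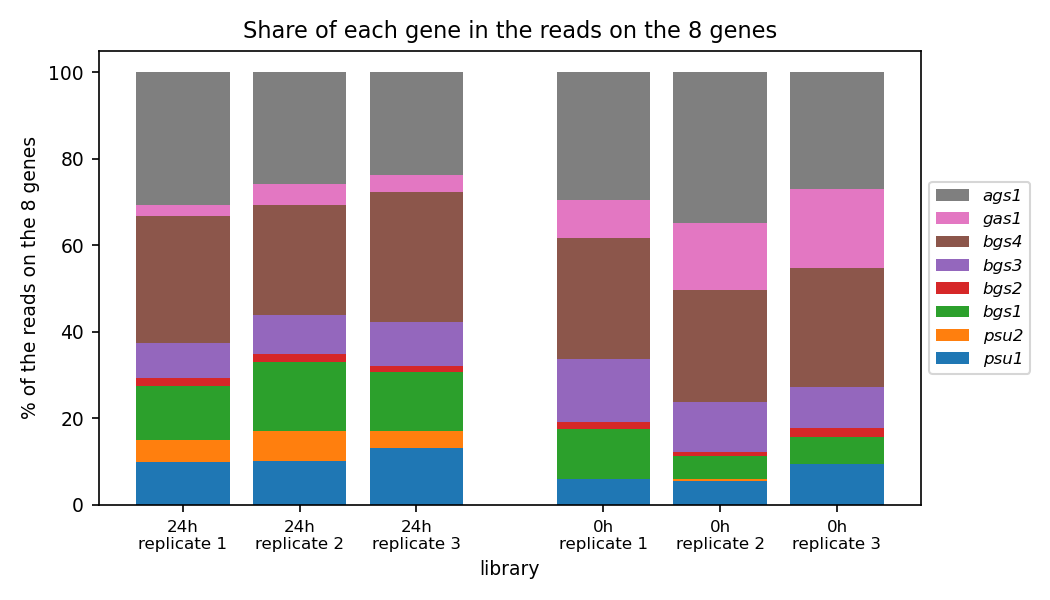
Share of each gene in the reads that fell on the 8 genes, as stacked bars adding up to 100% per library, with 24h libraries on the left and 0h libraries on the right. The gas1 band is 2.56 to 4.75% at 24h and 8.82 to 18.2% at 0h; psu2 is 4.07 to 7.03% at 24h and at most 0.368% at 0h.

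Levels of different genes were compared per coding kilobase, because the coding sequences run from 960 bases (psu2) to 7233 bases (ags1) in RefSeq's annotation of ASM294v3. The counted rows are transcripts, so reads outside the coding sequence may be included, while only coding length was divided out. That can raise genes with short coding sequences, such as psu2, psu1 (1254 bases) and gas1 (1629 bases), and its effect on the order was not tested. At 24h psu1 was the highest of the 8 in all 3 libraries, at 382 ± 48.5 CPM per coding kb, a level above 95.8% of 5107 coding features. Next came psu2 at 259 ± 117, bgs4 at 213 ± 50.7, ags1 at 168 ± 60.8, bgs1 at 121 ± 35.6, gas1 at 102 ± 38.0, bgs3 at 72.7 ± 12.9 and bgs2 at 13.0 ± 4.99 CPM per coding kb (SD, n = 3). The ranges of every pair of neighbours in this order overlapped, except those of bgs3 and bgs2. Within libraries the order held in all 3 except that bgs4 lay above psu2 in 24h replicate 3.

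At 0h the order was a different one. There gas1 was the highest in all 3 libraries, at 229 ± 103 CPM per coding kb, followed by psu1 at 142 ± 55.6, bgs4 at 117 ± 17.0, ags1 at 108 ± 28.3, bgs3 at 54.4 ± 7.51, bgs1 at 36.6 ± 8.59, bgs2 at 6.50 ± 3.55 and psu2 at 3.67 ± 6.35 (SD, n = 3). In 0h replicate 1 the first place of gas1 (110.9, against 97.5 for bgs4 and 96.1 for psu1) rested on few reads. They numbered 6 on gas1, 19 on bgs4 and 4 on psu1. Ranges of gas1, psu1, bgs4 and ags1 overlapped from neighbour to neighbour, and so did those of bgs2 and psu2, whereas ags1 and bgs3, bgs3 and bgs1, and bgs1 and bgs2 did not. At both times the spore wall gene bgs2 lay low, above 23.6% of coding features at 24h and above 11.96% at 0h. The median coding feature was at 29.6 CPM per coding kb at 24h and 31.7 at 0h.

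**Figure D4:**
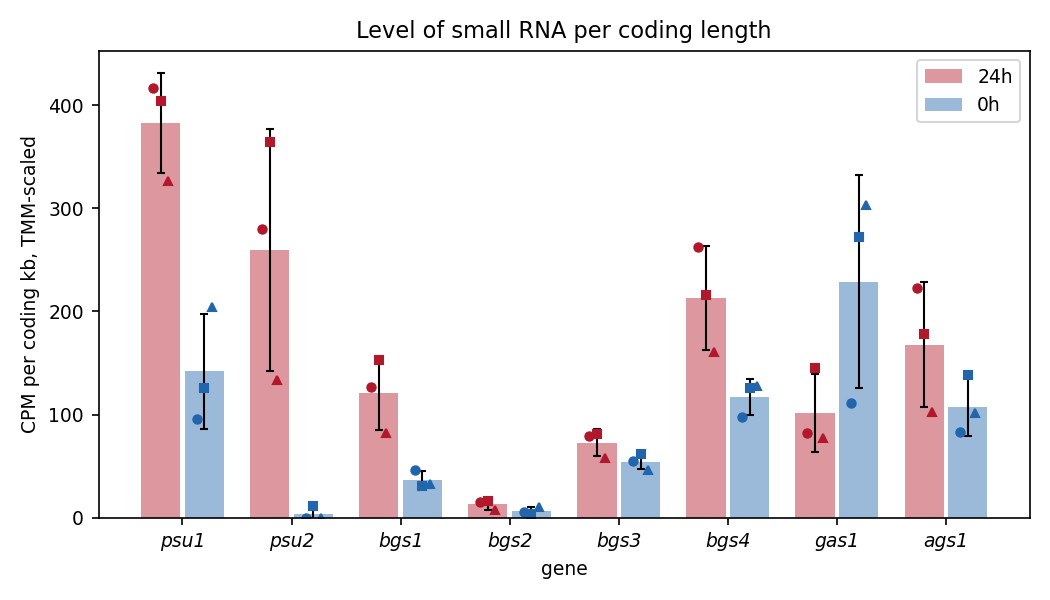
Level of small RNA per coding length (TMM-scaled CPM per coding kb) on each gene, with 24h bars left of 0h bars; bars are group means, black lines 1 SD (n = 3) not drawn below 0, and symbols single libraries (circle, square and triangle for replicates 1, 2 and 3). At 24h psu1 is the highest at 382, and at 0h gas1 is the highest at 229.

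Most features next to these genes carried few reads. Of 15 counted features that were the nearest on either side or overlapped one of the 8, 1 was tested, the transcription factor gene mbx1 beside bgs1 (log2 fold change 0.30, SE 0.40, edgeR adjusted p = 0.615, Benjamini-Hochberg). Both features that overlap psu2 lie on the opposite strand: the gene mpi1 had 5, 29 and 38 reads at 24h and 0, 3 and 7 at 0h, and the noncoding RNA SPNCRNA.1601 had 0, 2 and 13 at 24h and 2, 1 and 1 at 0h. Over bgs2, the antisense noncoding RNAs SPNCRNA.879 (19 reads at 24h, 10 at 0h) and SPNCRNA.880 (26 and 2) were sparse too. SPBC19G7.04, which overlaps an end of bgs1, had 1 read at 24h and 3 at 0h, and SPNCRNA.1034, which overlaps bgs3, had 0 in every library. Reads in a stretch shared by overlapping features could be split only by strand, so counts of psu2, bgs1, bgs2 and bgs3 are uncertain there.

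The coding gene outside the 8 whose TMM-scaled log2(CPM + 1) tracked each gene most closely over the 6 libraries was searched among 1596 tested genes. For psu2 it was puf1, an RNA-binding protein gene (Pearson r = 0.996), for psu1 the glycolytic gene gpd3 (0.995), for bgs1 the kinase gene oca2 (0.994) and for gas1 the actin gene act1 (0.995). For bgs3, bgs4 and ags1 it was pdr16 (0.991), tre1 (0.987) and wwm3 (0.984). With 6 points that share 2 groups and their library sizes, between 12 (ags1) and 102 (psu2) genes had r above 0.9, so these are descriptions. Pearson r takes no account of the size of a change. Small RNA on puf1 was at 388, 355 and 309 CPM at 24h and 120.5, 190 and 111 CPM at 0h. Its log2 fold change was 1.28 (SE 0.35, edgeR adjusted p = 0.0211), whereas psu2 had 0, 1 and 0 reads at 0h. Like gas1, act1 did not pass, with 747, 1022 and 645 CPM at 24h and 813, 1573 and 1662 CPM at 0h. For gpd3 the values were 3629, 4744 and 3085 CPM at 24h and 211, 401 and 1125 CPM at 0h, a log2 fold change of 2.68 (SE 0.61, edgeR adjusted p = 0.0101, Benjamini-Hochberg).

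Across 89 other genes of the wall and septum, in 7 lists, 38 were tested, of which 2 rose (5.26%) and 7 fell (18.4%), beside 13.1% higher and 12.8% lower of all tested features. Their median log2 fold change was -0.30, beside -0.02 for all tested features. The count filter stood at 77.4 CPM of assigned reads in at least 3 libraries. Both genes that rose and 5 of the 7 that fell were under it in 1 or more libraries of the lower group, so their testing rested in part or wholly on the group where they are high. These counts and medians describe the tested genes and support nothing further. The 2 exceptions, over the level in all 6 libraries, were adg3 and gas2. Of 14 glucanase and cell separation genes, which open the wall, 5 were tested and 4 fell, with a median of -2.02. The same 4 were lower in DESeq2, which, run without the filter, added adg1 (0, 1 and 0 reads at 24h, 2, 6 and 8 at 0h). Of the 4, eng1 passed the filter through 0h alone, and mid2 and exg1 were over it in 1 of the 24h libraries. The gene eng1, whose endoglucanase dissolves the primary septum, was at 0, 15.1 and 10.8 CPM at 24h and 211, 296 and 426 CPM at 0h. On the log2 scale the β-glucanase gene exg1 was at -2.59 (SE 0.49), mid2, which organises septins at the division site, at -2.02 (SE 0.37) and adg3 at -1.69 (SE 0.35), with edgeR adjusted p between 0.000494 (eng1) and 0.00673 (adg3) after Benjamini-Hochberg adjustment. Per aligned read mid2 (1.56, edgeR adjusted p = 0.0469) and adg3 (1.95, 0.0148) were called higher, on a scale where 93.9% of tested features were. On that scale exg1 (0.89, 0.248) and eng1 (-1.37, 0.0792) did not pass. With library totals adg3 did not pass (-0.94, adjusted p = 0.0879).

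Of 7 further synthase and transglucanase genes 4 were tested, of which 0 rose (2 at an unadjusted p below 0.05, 0 in DESeq2) and 1 fell, with a median of 0.55. The Gas family gene gas2 fell, at 582, 400.3 and 416 CPM in 24h libraries and 1024, 971 and 1082 CPM in 0h libraries (log2 fold change -1.15, SE 0.36, edgeR adjusted p = 0.0365, Benjamini-Hochberg). It lost its call without any 1 library (adjusted p 0.0574 to 0.111), in DESeq2 and with library totals (-0.42, edgeR adjusted p = 0.478). Per aligned read gas2 was called higher (2.40, edgeR adjusted p = 0.00301), as were 93.9% of tested features. Small RNA on the spore wall α-glucan synthase genes mok12 (1.24, SE 0.46, edgeR adjusted p = 0.0702), mok14 (1.02, SE 0.43, 0.102) and mok13 (0.08, SE 0.41, 0.903) did not pass after Benjamini-Hochberg adjustment, though mok12 did when 24h replicate 3 was left out (adjusted p = 0.0303). Both mok12 and mok14 reached the count filter through 24h alone, so their values and the list median of 0.55 are not independent of their change. With no filter edgeR called mok12 (0.0199) and mok14 (0.0485) but not mok13 (0.624). Library totals did the same (0.00682, 0.0115 and 0.177), a scale on which 33.1% of features were called higher. The spore wall list of 10 genes had these 3 and the chitin deacetylase gene cda1 (-0.31, SE 0.36) as its tested members, with 0 called in edgeR and in DESeq2 and 2 higher at an unadjusted p below 0.05.

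In the cell integrity pathway, which signals wall damage from sensors through protein kinase C to a MAP kinase, 12 of 19 genes were tested, 1 rose, 1 fell and the median was 0.16. Of all tested features 13.1% rose and 12.8% fell. The rise was pck1, a protein kinase C gene that passed the count filter through 24h alone, at 105, 85.6 and 74.8 CPM at 24h and 0, 21.1 and 25.6 CPM at 0h (log2 fold change 2.02, SE 0.58, edgeR adjusted p = 0.0263, Benjamini-Hochberg). DESeq2 (0.107) did not call it, nor did edgeR with 24h replicate 1 left out (0.0591), nor with the 0h libraries of replicate 2 (0.085) or 3 (0.0677) left out. The fall was pmk1, the MAP kinase gene itself, which passed the filter through 0h alone, at 29.9, 17.6 and 53.0 CPM at 24h and 301, 158 and 128 CPM at 0h (-2.22, SE 0.50, edgeR adjusted p = 0.00923), a value of 0.84 per aligned read. The sensor gene wsc1 (1.54, adjusted p = 0.0966, and 0.0303 when 0h replicate 3 was left out) and the kinase gene mkh1 (1.10, 0.109) did not pass. Like pck1, wsc1 and mkh1 reached the count filter through 24h alone, so their testing rested on the group where they are high. With no filter edgeR called wsc1 (0.0169) but not mkh1 (0.0666). With library totals it called both (0.00853 and 0.0116), a scale on which 33.1% of features were called higher.

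Of 27 mannan and wall glycoprotein genes 11 were tested and 1 fell, with a median of -0.44. It was gmh4, a galactosyltransferase gene that passed the filter through 0h alone, at 29.9, 42.8 and 55.5 CPM at 24h and 241, 253 and 239 CPM at 0h (-2.36, SE 0.34, edgeR adjusted p = 0.00156, Benjamini-Hochberg), whereas per aligned read it was at 1.04. The values of mbx2 (-1.14), ecm33 (-0.55) and anp1 (-0.55) did not pass, though mbx2 did when 24h replicate 3 was left out (-1.78, adjusted p = 0.037). Of 7 chitin and chitosan genes 2 were tested, and cfh2, a chitin synthase regulator that passed the filter through 24h alone, rose to 134, 216 and 207 CPM at 24h, against 0, 52.8 and 93.8 CPM at 0h (1.64, SE 0.49, edgeR adjusted p = 0.0314). DESeq2 did not make that call (0.0645), and edgeR lost it when 24h replicate 2 (0.0587), or 24h replicate 3 (0.061), or 0h replicate 2 (0.125) was left out. Of 13 genes of the septum and contractile ring 4 were tested and 0 called in edgeR or DESeq2, with 1 lower at an unadjusted p below 0.05, cdc4, which passed when 24h replicate 3 was left out (-1.51, adjusted p = 0.0388). The tested values were cdc4 (-1.05), cdc8 (-0.66), myo2 (0.0045) and cdc12 (-0.0039).

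**Figure D5:**
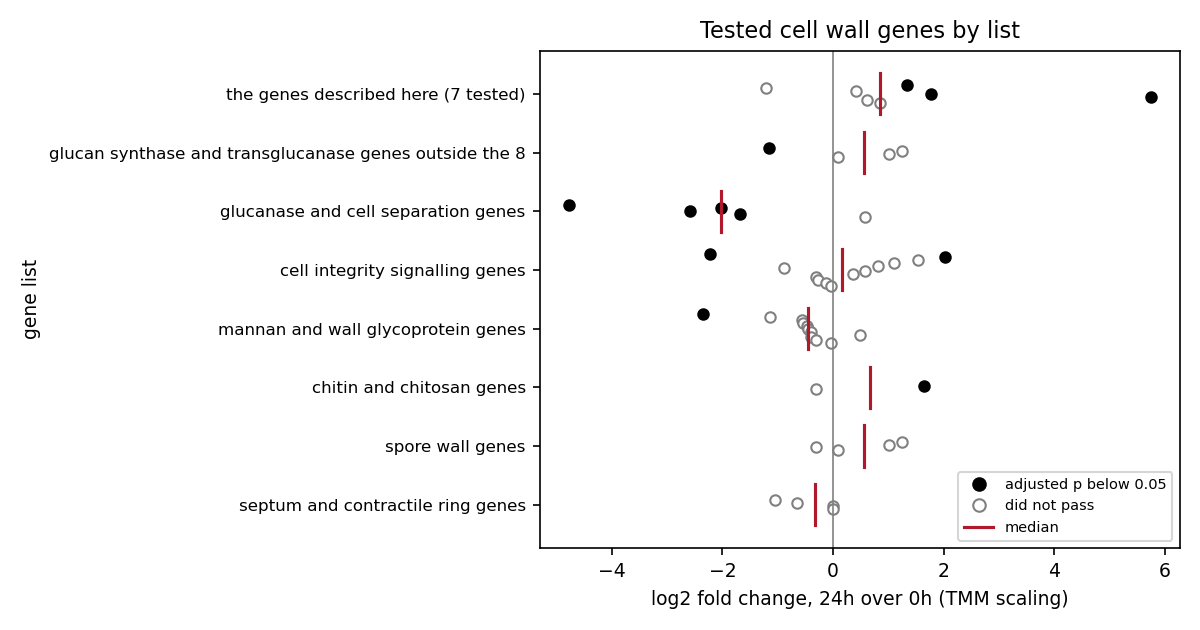
Log2 fold changes (24h over 0h, TMM scaling) of the tested members of each wall gene list, with the 7 tested genes described here in the top line; filled points have an edgeR adjusted p below 0.05, open points did not pass, and red lines are medians. Of the glucanase and cell separation genes 4 of 5 lie left of 0 as filled points, and the point farthest right in the top line is psu2.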

How the data were processed

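Ago1-associated small RNA was counted in 6 libraries (24h and 0h, 3 each). The deposited files held the authors' raw read counts for 6878 features, and 5 HTSeq tally lines that entered no test. The submitters' processing notes named cutadapt, Bowtie2 2.1.0, HTSeq 0.6.1 and the build ASM294v2, with no options. Low mapping quality had removed 90.3 to 96.4% of aligned reads, and reads in no feature were 42.7 to 52.4% of the rest at 24h and 82.7 to 91.2% at 0h. Of 576 features wholly inside an opposite-strand feature, 492 had a count, so strand was used in counting, in a direction not given here.

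Names, neighbours and coding lengths came from RefSeq's ASM294v3, with no coordinates (6706 IDs matched directly, 16 through an older ID, 156 not). The list names pwp1 (now knh2), pvg4 (now mbx2) and cfh3 (now chr4), were matched by older names. The test was edgeR's (4.0.16, R 4.3.3): TMM factors, filterByExpr at a minimum of 10 counts, a quasi-likelihood fit with robust moderation and group as its term, two-sided p adjusted by Benjamini-Hochberg over 1716 features, and a threshold of 0.05. It was tested on simulated data. SE is the log2 fold change over the square root of F. Ratios used summed counts over TMM-scaled library sizes with an exact 95% interval (SciPy 1.17.1), and a count of 0 a floor of 3 counts; reads had no molecular identifiers, so both cover counting error only. Alternatives were other scalings and filters, no robust step, DESeq2 1.42.0, a replicate block and leaving out each library. No 2 replicates agreed within sampling noise (chi-square per degree of freedom 5.15 or more).

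The 8 genes and the lists were chosen with earlier results of these data known. Named were the 8, the 4 smallest p in each list, the nearest features, the closest-tracking gene of each, and ste11 and SPNCRNA.232 of 4 state markers (mei2 and SPNCRNA.231 moved likewise, by 4.53 and -5.14).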

Additional observations from a re-analysis of the deposited data

How the results depend on the processing

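The scaling decided most of what moved. With library totals 568 features were called higher and 95 lower, and 6 of the 8 genes higher; per aligned read 1611 and 4 features and 7 genes. With no filter 479 features were higher and 337 lower, and with a minimum count of 30, where fewer were tested and psu2 was not, 100 and 76. Without each library in turn the features ran from 110 to 204 higher and from 147 to 235 lower, the lowest counts of higher features being 110 (0h replicate 2 left out) and 139 (0h replicate 3 left out). The 8 genes then gave 1 to 3 higher calls, 1 of them without 0h replicate 2, and 0 to 1 lower. The lower call was gas1, which also passed, as 1 lower gene, with RLE factors, with a minimum count of 30 and with the replicate block. The cause was not tested beyond these settings.

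Same-numbered libraries had deviations correlated at 0.061, 0.151 and 0.175, not all above 0.1, so the main test did not treat the numbers as pairing. Every library still correlated best with its own number, and correlations between different numbers ran from -0.126 to -0.001. Whether the numbers pair the libraries is therefore not settled. With the replicate number as a block 279 features were higher and 271 lower, and 3 genes higher and 1 lower (gas1, adjusted p = 0.00798). Of the other named genes mbx2 (-1.40, adjusted p = 0.0147) and wwm3 (1.19, 0.0227) gained a call with the block; none lost one.

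In the wall lists, library totals gave 2 higher and 0 lower among the further synthases and transglucanases, 3 lower among the glucanases, 5 higher in cell integrity and 2 higher in the spore wall list. On that scale 33.1% of all tested features were called higher. Per aligned read 93.9% of all tested features were called higher. There 4 of 4 tested further synthases, 3 of 5 glucanases, 11 of 12 cell integrity genes and 10 of 11 mannan and glycoprotein genes were higher, with 0 lower. Higher calls were 2 of 2 for chitin, 4 of 4 for the spore wall and 4 of 4 for the septum. Without each library the further synthases had 0 to 1 higher and 0 lower, the glucanases 4 to 6 lower, cell integrity 0 to 1 higher and 1 to 2 lower, mannan 1 to 2 lower, chitin 0 to 1 higher, the spore wall 0 to 1 higher and the septum 0 to 1 lower. As a share of assigned reads the 8 genes together made up 0.594% at 24h and 0.201% at 0h. As a share of aligned reads they made up 0.0240% and 0.00108%. The median log2 fold change of all tested features was itself 0.69 with library totals and 3.55 per aligned read.

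Signs turned per aligned read for gas1 (2.53), gas2 (2.40), mid2 (1.56), exg1 (0.89), adg3 (1.95), pmk1 (0.84), gmh4 (1.04), mbx2 (2.02), ecm33 (3.04), anp1 (3.06), cda1 (3.14), cdc4 (2.25), cdc8 (2.94), cdc12 (3.63) and act1 (2.93). They turned with library totals for ecm33 (0.19), anp1 (0.20), cda1 (0.38), cdc8 (0.053), cdc12 (0.74) and act1 (0.0018). With no filter cda1 (0.017) and cdc12 (0.35) turned, in DESeq2 cdc12 (0.20), and with the block myo2 (-0.011). Without each library mok13 ran from -0.090 to 0.30, myo2 from -0.32 to 0.23, cdc12 from -0.24 to 0.19 and mbx1 from -0.037 to 0.52.

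Depth limits the 0h side most: in the smallest library, with 48040 assigned reads, a count of 0 allows 90.3 CPM.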
